A study of Mus musculus with 24 samples.

Results

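Far intergenic H3K9ac regions were defined as stretches of the mouse genome where a peak of H3K9 acetylation had been called outside every protein-coding gene body and more than 50 kb from the transcription start site (TSS) of every protein-coding gene. The peaks of 12 H3K9ac libraries on chromosomes 1 to 19 and X were merged where they overlapped by 1 bp or more, which gave 38586 regions. Of these, 2922 met the criteria of position, and the 1538 called in 2 to 11 of the 12 libraries are described here. The regions were thus selected on position and on the number of libraries with a peak call, and calls are given only as a description. The name holds for protein-coding promoters only, because 90 of the 1538 regions (5.85%) lay within 1 kb of the TSS of an annotated long non-coding RNA (lncRNA).

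The libraries came from 4T1, a carcinoma line from the mammary gland of a BALB/c mouse, which was grown as 3D spheroids and collected on day 5. There were 3 libraries of each of 4 groups. The scramble cells carried a non-targeting guide, the CPT1a knockout cells lacked the mitochondrial importer of long-chain fatty acids, and the KAT2a knockout cells lacked an acetyltransferase that acts on histone H3. These 3 groups received 75 µM palmitate. The fourth group consisted of CPT1a knockout cells given 5 mM acetate. Their labels name acetate only, whereas the study's description of its H3K9ac comparison with and without acetate places both arms in palmitate. All groups, scramble included, carried lentiviral Cas9 induced by doxycycline and were selected with puromycin, and guides to 2 exons were designed for each targeted gene. The labels name no separate lines within a genotype. Because nothing in the labels says that replicates were separate cultures, p-values measure only the spread between these libraries.

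Acetylation of lysine 9 on histone H3 neutralizes a positive charge of the histone tail and marks the promoters and enhancers of active genes. Enhancers can lie far from the gene they act on and loop to its promoter, where transcription factors and co-activators such as acetyltransferases meet RNA polymerase. Intergenic DNA also holds many copies of transposable elements, some of which carry their own promoters, and many lncRNA genes. A nearest gene is given below only to say where a region lies, since distance does not show which gene an element acts on.

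The 12 lists held 16201 to 34330 peaks on these chromosomes. The depth at which each list had been called, recovered from the deposited fold enrichments and p-values as the mean number of fragments covering a base of the genome, ran from 0.554 in CPT1a knockout replicate 3 and 0.660 in acetate replicate 2 to 2.52 in scramble replicate 1. Replicate 3 of the CPT1a knockout stood apart from the other libraries, with 4.10% of the regions called. Promoter peaks of 8 of 9 epithelial and mammary carcinoma markers (Epcam, Cdh1, Krt7, Krt8, Krt18, Krt19, Cldn4 and Elf3) were present in 12 of 12 libraries, and Ehf had none. No library had a promoter peak at any of the leukocyte, endothelial, adipocyte or neuronal markers examined, whereas the fibroblast genes Pdgfra and Col1a1 had one in 12 and 11 libraries and Dcn in 0. Libraries also differed in base composition. The median GC content of the regions called was 43.1% to 44.7% in the 3 scramble libraries and 46.8% to 52.4% in the other 9, without overlap. Over all variable regions called it was 43.5% to 46.2% and 49.0% to 55.2%, also without overlap, so the shift was not particular to the far regions.

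The DNA under these peaks was far from uniform, which the following 200 bp windows around peak summits show (mm10 coordinates, letters from the GRCm38.p6 reference, 5′ to 3′, CpG dinucleotides in capitals). They stand for the strongest region, a region called in scramble only, a region called everywhere except in scramble, the longest region, a region at an lncRNA start and the region farthest from a coding gene.
Region near Cd109, chr9:78821624-78821823, plus strand: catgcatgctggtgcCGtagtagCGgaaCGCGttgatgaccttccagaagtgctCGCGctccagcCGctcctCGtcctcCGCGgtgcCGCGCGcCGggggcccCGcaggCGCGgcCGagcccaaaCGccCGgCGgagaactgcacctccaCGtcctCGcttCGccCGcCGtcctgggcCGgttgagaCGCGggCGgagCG
Region near Ube3a, chr7:59383461-59383660, plus strand: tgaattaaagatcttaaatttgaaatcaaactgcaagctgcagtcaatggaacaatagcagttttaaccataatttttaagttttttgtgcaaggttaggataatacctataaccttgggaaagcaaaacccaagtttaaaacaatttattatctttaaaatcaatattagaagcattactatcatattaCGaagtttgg
Region near Cdkn2aipnl, chr11:51916279-51916478, plus strand: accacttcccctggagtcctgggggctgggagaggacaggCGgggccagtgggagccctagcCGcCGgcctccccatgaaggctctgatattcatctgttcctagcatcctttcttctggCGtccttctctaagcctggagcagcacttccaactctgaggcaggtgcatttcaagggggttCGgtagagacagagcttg
Region near Dmrta1, chr4:89508998-89509197, plus strand: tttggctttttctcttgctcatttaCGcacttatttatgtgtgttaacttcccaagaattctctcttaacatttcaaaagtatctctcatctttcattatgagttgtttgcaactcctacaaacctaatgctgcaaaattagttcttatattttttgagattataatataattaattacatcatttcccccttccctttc
Region near Eef1e1, chr13:38793235-38793434, plus strand: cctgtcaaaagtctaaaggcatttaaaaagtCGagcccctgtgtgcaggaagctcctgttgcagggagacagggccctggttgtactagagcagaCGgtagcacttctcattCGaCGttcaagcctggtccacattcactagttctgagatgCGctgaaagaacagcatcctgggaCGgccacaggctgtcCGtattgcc
Region near G6pd2, chr5:59955872-59956071, plus strand: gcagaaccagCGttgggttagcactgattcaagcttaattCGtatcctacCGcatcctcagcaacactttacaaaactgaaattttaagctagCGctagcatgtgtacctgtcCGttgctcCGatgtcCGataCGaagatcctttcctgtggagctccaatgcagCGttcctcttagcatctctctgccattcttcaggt
The window near Cd109 held 31 CpG dinucleotides at 73% GC. In contrast, the windows near Ube3a and Dmrta1 held 1 CpG each, at 28% and 30.5% GC. The remaining 3 windows lay between these, with 5, 7 and 9 CpG.

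A typical region was short and remote. The median width was 585 bp (range 204 to 3626 bp) and the median distance to a protein-coding TSS was 111595 bp. More than 100 kb separated 853 regions (55.5%) from any such TSS, more than 500 kb separated 140 (9.10%) and more than 1000 kb separated 42 (2.73%). Widths were close to those of variable peaks in gene bodies (median 589 bp over 5437 regions that overlap a coding gene, lie more than 1 kb from its TSS and were called in 2 to 11 libraries). Variable promoter regions, within 1 kb of a coding TSS, had a median of 683 bp (2314 regions). The median GC content was 46.0%, against 45.6% in variable gene body regions and 50.8% in variable promoter regions. The observed to expected ratio of CpG was 0.283, against 0.210 and 0.319.

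Most regions overlapped none of the non-coding annotation examined. No lncRNA gene, lncRNA promoter or pseudogene lay over 1100 of them (71.5%), while 315 (20.5%) overlapped an lncRNA gene and 121 (7.87%) a pseudogene. A pseudogene was under 1.62% of variable gene body regions and 0.951% of variable promoter regions. It was under 10.3% of far regions called in all 12 libraries and 5.48% of those called in 1. Regions far from promoters that had been called in all 12 libraries differed in other respects: 399 such regions had a median width of 2238 bp, and 23.3% of them lay within 1 kb of an lncRNA TSS. Of the variable far regions, 215 (14.0%) lay within 10 kb of a region called in 12 libraries, compared with 55.6% of variable gene body and 51.4% of variable promoter regions. The rule itself keeps the far regions away from coding genes and their promoters, so this contrast is not independent of the selection.

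Regions at the limits of the rule graded into those outside it. The number of regions fell from 343 called in 2 libraries to 90 called in 10, with 163 called in 11. The median width over these classes went from 386 bp at 2 libraries to 1422 bp at 11, while far regions of 1 library (985) had 243 bp. Strength was measured as the percentile of a peak's fold enrichment among all peaks of its own library, where 0 is the weakest and 100 the strongest. Its median was 22.2 for regions of 2 libraries and 40.3 for those of 11, beside 17.7 for regions of 1 library and 52.5 for those of 12. At the distance limit, regions near Nt5e (49986 bp, 6 libraries) and Slc38a11 (49899 bp, 6 libraries) stayed out, whereas regions near Tmem189 (50129 bp, 5 libraries) and Stx16 (50134 bp, 2 libraries) entered.

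Repeated sequence was common. A region was called repeated when the median of 10 sampled 31-base words from it occurred at 2 or more places in the genome. This held for 492 regions (32.0%), against 7.10% of variable gene body regions, 5.06% of variable promoter regions and 19.5% of far regions called in all 12 libraries. The words of 355 regions (23.1%) occurred at 10 places or more. Soft-masked sequence, the part of the reference marked as repetitive, covered at least 50% of 396 regions (25.7%), compared with 9.16% and 4.36% of gene body and promoter regions. Since the handling of reads that map to several places is not given in the sources used here, a call at 1 copy cannot be told apart from signal at another, and the single-copy part is given beside counts of regions called in 1 group and not in another and beside counts of neighbouring genes.

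Shared sequence placed 421 regions (27.4%) in 33 families. Each had at least 20% of its sampled words in common with another member. Not every member counted as repeated: the region chr14:105681830-105682338, for example, had 1 genome copy. The first family held 149 regions on 20 chromosomes (median width 443 bp, GC 43.8%, about 230 genome copies) and the second held 126 regions on 19 chromosomes (849 bp, GC 36.4%, 113 copies). Without a repeat annotation the families are left unnamed. The copies below are 151-base stretches in which the shared 31-base word is in capitals.
First family, chromosome 10 copy, chr10:55719904-55720054, minus strand: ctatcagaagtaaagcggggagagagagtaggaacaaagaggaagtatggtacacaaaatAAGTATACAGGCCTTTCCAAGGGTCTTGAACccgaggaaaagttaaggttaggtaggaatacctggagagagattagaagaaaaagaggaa
First family, chromosome 1 copy, chr1:126939954-126940104, plus strand: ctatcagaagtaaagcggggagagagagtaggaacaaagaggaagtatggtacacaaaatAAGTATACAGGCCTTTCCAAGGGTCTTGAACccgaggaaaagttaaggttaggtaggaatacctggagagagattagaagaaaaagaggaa
Second family, first copy, chr1:44824557-44824707, plus strand: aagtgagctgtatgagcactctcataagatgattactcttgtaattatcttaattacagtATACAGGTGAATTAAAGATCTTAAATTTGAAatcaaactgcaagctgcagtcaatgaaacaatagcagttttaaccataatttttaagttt
Second family, second copy, chr1:111692722-111692872, minus strand: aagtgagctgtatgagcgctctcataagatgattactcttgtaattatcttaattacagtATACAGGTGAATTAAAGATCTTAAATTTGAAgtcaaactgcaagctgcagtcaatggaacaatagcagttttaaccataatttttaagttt
The 2 copies of the first family were identical over 151 of 151 bases although they lie on different chromosomes, and their 31-base word occurred in 73 of the 149 members (49.0%). Between the copies of the second family 148 of 151 bases matched, and their word occurred in 71 of 126 members (56.3%). The window near Ube3a printed above belongs to the second family.

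**Figure D1:**
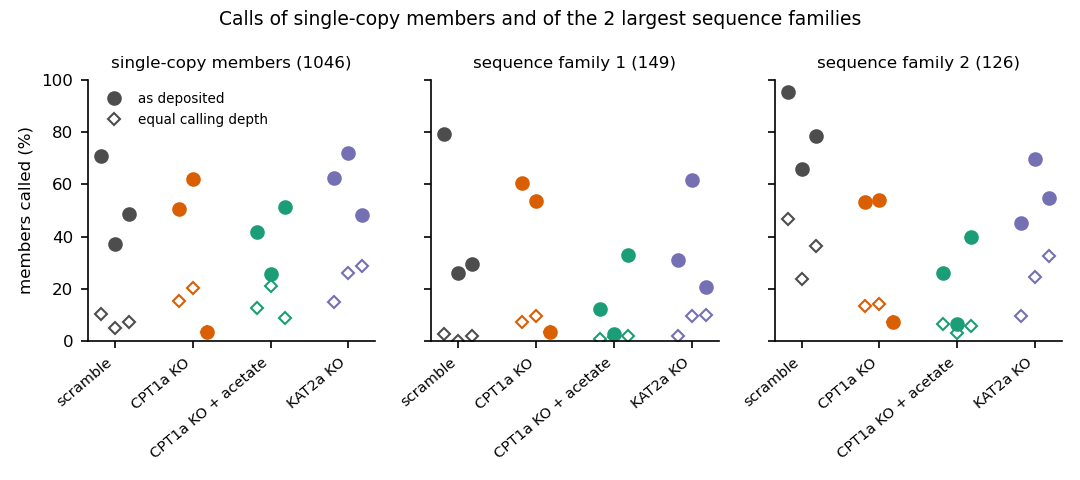
Percent called in each library (y axis) of single-copy regions and of the 2 largest sequence families, 1 panel each, with 3 libraries per group on the x axis, filled points for lists as deposited and open diamonds for lists at equal calling depth. The second family was called at 65.9% to 95.2% in scramble libraries and at 6.35% to 39.7% in acetate libraries.

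Family members did not follow the groups in the same way. In the second family, 95.2%, 65.9% and 78.6% of members were called in the 3 scramble libraries. The CPT1a knockout libraries called 53.2%, 54.0% and 7.14%, the acetate libraries 26.2%, 6.35% and 39.7%, and the KAT2a knockout libraries 45.2%, 69.8% and 54.8%. Scramble libraries did not overlap CPT1a knockout or acetate libraries, but they overlapped KAT2a knockout libraries. Over all variable far regions, scramble libraries called 39.7% to 74.2% and overlapped each other group. The CPT1a knockout libraries called 4.10% to 59.0% of these, the acetate libraries 19.7% to 48.9% and the KAT2a knockout libraries 45.3% to 70.7%. At equal calling depth the scramble libraries called 46.8%, 23.8% and 36.5%, the CPT1a knockout libraries 7.14% to 14.3%, the acetate libraries 3.17% to 6.35% and the KAT2a knockout libraries 9.52% to 32.5%. In the first family, the highest share in the deposited lists was in scramble replicate 1 (79.2%), but scramble replicates 2 and 3 (26.2% and 29.5%) lay below CPT1a knockout replicates 1 and 2 (60.4% and 53.7%). At equal calling depth, scramble replicate 1 called 2.68% of the first family, below the 3 CPT1a knockout libraries (7.38%, 9.40% and 3.36%), and the highest share was 10.1% in KAT2a knockout replicate 3. These shares are given as a description, since calls chose the regions and GC content, which is low in the second family, differed between scramble and the other libraries.

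Calls per library varied widely. The scramble libraries called 1141, 611 and 754 of the 1538 regions, the CPT1a knockout libraries 806, 908 and 63, the acetate libraries 547, 303 and 752, and the KAT2a knockout libraries 862, 1088 and 697. Much of this spread was shared by all variable regions. Scramble libraries called 74.2%, 39.7% and 49.0% of the far regions and 73.0%, 40.5% and 53.0% of the 12616 variable regions. The shares were 52.4%, 59.0% and 4.10% against 41.9%, 51.1% and 4.07% in the CPT1a knockout. They were 35.6%, 19.7% and 48.9% against 36.6%, 21.7% and 46.7% in the acetate group, and 56.0%, 70.7% and 45.3% against 48.8%, 56.8% and 36.4% in the KAT2a knockout. Of the far regions, 598 (38.9%) were called in at least 1 library of each of the 4 groups, and 182 (11.8%) in 1 group only, of which 124 in scramble and 46 in the KAT2a knockout. Scramble had the longest lists, and these counts were not made over all variable regions, so they have no background. A call was missing in CPT1a knockout replicate 3 for 1475 regions (95.9%), and 127 of the 163 regions of 11 libraries (77.9%) lacked only that library. After the lists had been brought to equal depth, scramble libraries called 200, 99 and 148 regions and KAT2a knockout libraries 202, 384 and 416. The group means were 835 and 882 regions in the deposited lists, where these groups overlapped, and 149 and 334 at equal depth. The share of all variable regions called at equal depth was not computed, so the counts at equal depth have no background. Between libraries, the shared regions were on average 43.5% of the regions called in either library within groups (12 pairs, range 6.94% to 62.1%) and 36.7% between groups (54 pairs, range 4.08% to 58.9%). Without CPT1a knockout replicate 3 and acetate replicate 2 these means were 54.3% and 46.2%.

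**Figure D2:**
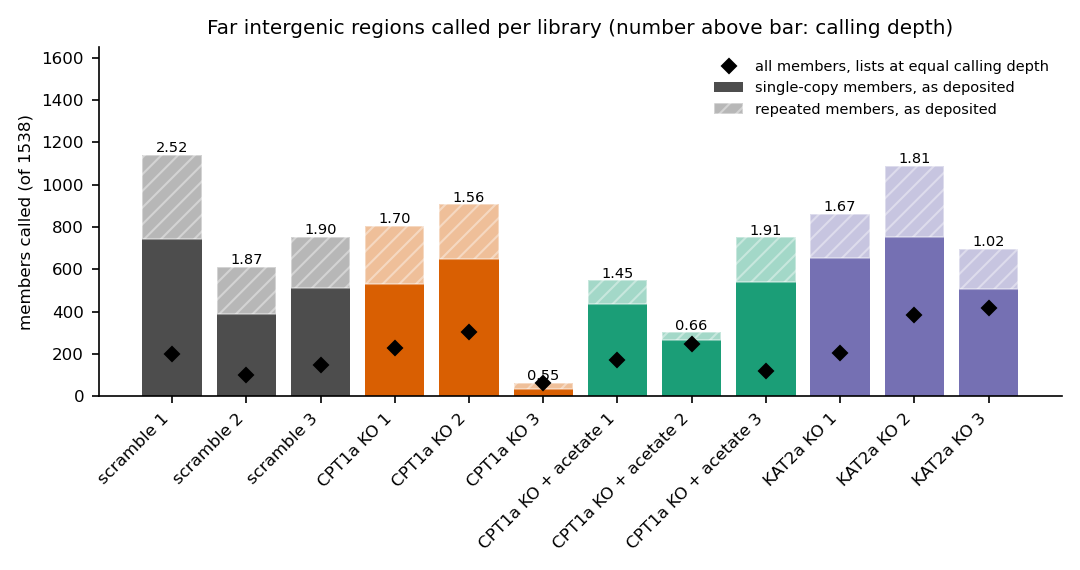
Number of far intergenic regions called in each of the 12 libraries, with bars split into single-copy and repeated regions, diamonds for all regions at equal calling depth, and the calling depth above each bar. CPT1a knockout replicate 3 called 63 regions at a depth of 0.55 and scramble replicate 1 called 1141 at a depth of 2.52.

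All far intergenic peaks of a library, whether or not shared with another library, addressed the question of how many distal H3K9ac sites each condition had. Scramble libraries held 1782 ± 404 such peaks (SD, n = 3), CPT1a knockout libraries 1268 ± 583, acetate libraries 1247 ± 255.7 and KAT2a knockout libraries 1670 ± 234. They made up 5.49% ± 0.850, 6.04% ± 2.03, 5.36% ± 0.858 and 7.09% ± 0.786 of all peaks in these groups. In 5 comparisons of groups over 4 measures, none of 20 two-sided exact permutation tests passed after Benjamini-Hochberg adjustment in the deposited lists, and 3 against 3 libraries cannot give an exact p below 0.1. The count difference of scramble minus the other 9 libraries was 387 peaks (exact permutation p = 0.182, adjusted 0.5). It turned to -198 peaks at equal calling depth (exact permutation p = 0.0409, adjusted 0.182), so no direction of the number of far peaks is stated.

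Peaks at the regions had higher percentiles in the deposited scramble lists than in the other lists, which were shorter (29153 to 34330 peaks against 16201 to 24594). The median percentile was 43.5, 30.97 and 34.4 in the scramble libraries, 21.6, 24.9 and 11.9 in the CPT1a knockout, 23.3, 18.3 and 27.3 in the acetate group and 25.2, 28.6 and 23.4 in the KAT2a knockout. Every scramble library lay above every other library. The difference was 13.5 percentile points (36.3 against 22.7, exact permutation p = 0.00455, adjusted 0.0909 over the 20 tests), and 3 against 9 libraries allow no lower p. Against scramble alone, the CPT1a knockout differed by -16.8 points, the KAT2a knockout by -10.5 and the acetate group by -13.3, each with an exact permutation p of 0.1 and an adjusted p of 0.5. The difference moved with list length and depth. At equal calling depth it was 2.75 points (exact permutation p = 0.0591, adjusted 0.182), and scramble libraries (13.8 to 15.6) overlapped the others (9.69 to 15.1). At equal list length it was 4.89 points (exact permutation p = 0.00455, adjusted 0.0455), and within regions of 40 to 50% GC it was 12.1 points.

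Median peak width at the regions was 374 bp in scramble and 331 bp in the other 9 libraries in the deposited lists, a difference of 43.3 bp (exact permutation p = 0.182, adjusted 0.5). With the lists cut to equal calling depth it was 384.7 bp (exact permutation p = 0.00455, adjusted 0.0909). The cut removed peaks and left the rest at their deposited widths, so this is not a difference in widths called at equal depth. At equal list length, where the peaks kept also had their deposited widths, the medians were 719 and 462 bp. The difference was 256.7 bp (exact permutation p = 0.00455, adjusted 0.0455).

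The regions were next set against other variable regions of the same libraries, which share list length and depth. Percentiles were 3.36 points higher than those of variable gene body regions (mean of 12 within-library differences, higher in 11 of 12 libraries, exact paired permutation p = 0.000977, adjusted 0.00391). They differed from variable promoter regions by -0.50 points (exact permutation p = 0.653, adjusted 0.653). Peaks were narrower than at variable promoters by -50.4 bp (wider in 2 of 12 libraries, exact permutation p = 0.00391, adjusted 0.00781), and the difference from gene body regions was -9.83 bp (exact permutation p = 0.121, adjusted 0.161). When only regions of 40 to 50% GC were kept, the percentile difference from gene body regions was 0.70 points and did not pass (exact permutation p = 0.344).

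**Figure D3:**
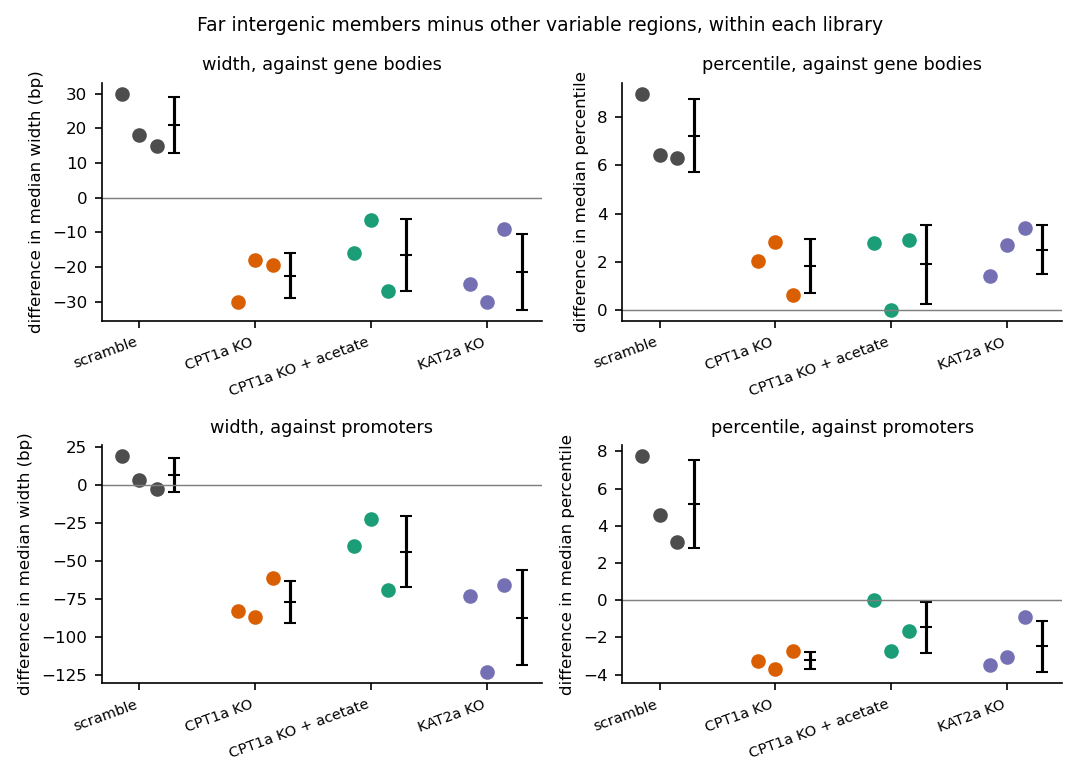
Within-library differences between far intergenic regions and variable gene body or promoter regions, in median peak width (bp) and median fold enrichment percentile, 1 point per library with the mean and SD of each group as bars. All 3 scramble libraries lie above the other 9 in each of the 4 panels.

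In these within-library differences scramble stood above the other groups. Far regions had peaks 21 ± 7.94 bp wider than gene body regions in scramble libraries (SD, n = 3) and narrower ones, -20.1 ± 8.64 bp, in the other 9 libraries. The percentile difference from gene body regions was 7.24 ± 1.505 points in scramble and 2.07 ± 1.16 in the others. Against promoter regions, the width difference was 6.67 ± 11.1 bp in scramble and -69.4 ± 28.6 bp in the others, and the percentile difference was 5.15 ± 2.37 and -2.39 ± 1.26 points. For each of the 4, scramble and the other 9 libraries did not overlap. This split was chosen after the differences had been seen, so they are given as a description with no test. Other settings moved them. Within each number of calling libraries the gene body differences between scramble and the others were 12.5 bp and 1.695 points, in place of 41.1 bp and 5.17 points. In regions of 40 to 50% GC the promoter width difference was 5.06 bp in place of 76.1 bp and the gene body width difference 14.1 bp, and without repeated regions the gene body percentile difference was 2.31 points. At equal calling depth the percentile differences were 2.75 points (gene body) and 2.69 points (promoter). The width differences there were 102 and 158 bp, from the deposited widths of the peaks kept.

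Regions present in one condition and absent from another were few. In all 3 scramble libraries and no CPT1a knockout library, 54 regions were called (3.51%), against a background of 6.38% of all 12616 variable regions of the series, and 24 of the 54 were single-copy. The reverse held for 10 regions (0.650%, background 0.587%), of which 4 were single-copy. For the KAT2a knockout, 29 regions were called in scramble only (1.89%, background 4.94%) and 55 in the knockout only (3.58%, background 3.57%). Of these, 10 of the 29 and 39 of the 55 were single-copy. Both counts of knockout-only regions were thus near the background, and both counts of scramble-only regions were below it.

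Few regions separated the acetate group from the CPT1a knockout by this count. There were 2 regions, both single-copy, called in 3 of 3 acetate and 0 of 3 CPT1a knockout libraries (0.130%, background 0.325%), and 1 repeated region the other way (0.0650%, background 0.0476%). Without CPT1a knockout replicate 3 the latter count was 107 and without acetate replicate 2 the former was 21. Against scramble, 13 regions were called in the acetate group only (0.845%, background 1.4%) and 87 in scramble only (5.66%, background 6.31%), of which 11 and 40 were single-copy. Without acetate replicate 2, the acetate group held 51 regions that scramble lacked. Without scramble replicate 1 or KAT2a knockout replicate 3, the KAT2a knockout held 116 or 122 that scramble lacked, in place of 55. Without CPT1a knockout replicate 3, the CPT1a knockout held 92 regions that scramble lacked, in place of 10. Without scramble replicate 2, scramble held 184 that the CPT1a knockout lacked, 137 that the KAT2a knockout lacked and 249 that the acetate group lacked, and other libraries moved these counts less. At equal calling depth, 16 regions were in scramble and not in the CPT1a knockout and 28 the other way. Leaving out a library makes the condition easier to meet for any class of regions. The counts over all variable regions were not made with a library left out or at equal depth, so these counts have no background.

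Base composition moved with these counts. Regions with calls in scramble but in no library of another group had median GC contents of 34.8% to 38.0%, whereas those called in a group and not in scramble had 52.9% to 55.8%. The same sets among all variable regions had 40.5% to 41.1% and 56.0% to 60.6%. The part of GC content in these calls was not tested. Among the 867 regions of 40 to 50% GC, scramble held 15 that the CPT1a knockout lacked (1.73%) and the CPT1a knockout held 1 that scramble lacked (0.115%). The KAT2a knockout held 19 that scramble lacked (2.19%) and scramble held 9 that the KAT2a knockout lacked (1.04%). These counts were not made over all variable regions of that GC range, so they have no background.

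A region called in all 3 scramble libraries and in none of the other 9 was rare, with 19 regions (1.24%, background 3.92%), of which 13 were repeated and 7 belonged to the second family. The strongest was chr7:59383172-59383865, in the body of the lncRNA Snhg14 and 79.7 kb from Ube3a, an imprinted ubiquitin ligase gene. Its fold enrichments were 8.36, 6.27 and 7.93 in the scramble libraries. Next came chr2:99650733-99651092, an AT-rich stretch of 19.4% GC 983 kb from Gm10800, with 8.36, 8.91 and 7.36. Among the others, regions of the second family lay near Npbwr1 (chr1:6011592-6012648), Catsperg2 (chr7:29646787-29647643) and Ascc3 (chr10:50260523-50261164), each with 101 to 162 genome copies. The 5 regions named here had GC contents of 19.4% to 32.9%.

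The opposite pattern, calls in all 9 libraries outside scramble and none in scramble, occurred at 3 regions (0.195%, background 0.222%). At chr11:51915257-51916794, 50.9 kb from Cdkn2aipnl, the fold enrichments were 5.27, 10.1 and 6.61 in the CPT1a knockout, 7.30, 5.61 and 4.63 in the acetate group and 5.70, 11.2 and 10.0 in the KAT2a knockout. The region is a single-copy stretch of 56.3% GC. At chr15:38406221-38407034, 87.4 kb from Azin1, which encodes an inhibitor of antizyme, values were 3.49 to 6.24. The last, chr12:20196760-20197696 near Gm21863, ranged from 2.25 to 7.22 and lay in sequence with a local background of 7.65 times the calling depth.

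Other regions that separated a knockout from scramble included several pseudogenes. At chr1:139929364-139929752, 70.7 kb from the complement factor H-related gene Cfhr2, no scramble library had a peak. CPT1a knockout libraries had fold enrichments of 8.35, 8.54 and 7.22 and KAT2a knockout libraries 5.51, 11.6 and 11.3. The region overlapped a pseudogene, as did chr5:60231302-60231641 near G6pd2, called in the CPT1a knockout (8.70, 9.39 and 6.98) and not in scramble. The same was true of chr5:46414129-46414500 near Lcorl, which had 7.11, 8.90 and 8.17 in the KAT2a knockout. A single-copy region, chr6:67170414-67170911, 67.3 kb from Serbp1, was called in 3 of 3 acetate libraries (6.93, 4.22 and 7.22) and 3 of 3 KAT2a knockout libraries and in 0 of 3 scramble libraries.

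Regions that set the acetate group apart from the CPT1a knockout were called elsewhere too. At chr19:21104916-21105857, within 1 kb of the start of an lncRNA and 150.7 kb from Tmc1, a gene of hair cell mechanotransduction, acetate libraries had 4.89, 4.55 and 2.86 and the CPT1a knockout had no call, but scramble libraries had 5.81, 5.11 and 5.49. At chr3:49066906-49067255, 688 kb from the protocadherin gene Pcdh18, acetate values were 5.38, 6.505 and 4.84, and 2 scramble libraries and 1 KAT2a knockout library also had a peak. The 1 region of the CPT1a knockout that the acetate group lacked, chr12:27421618-27423605 near Sox11, was a member of the second family with 4.70, 5.08 and 5.51 in the CPT1a knockout and 10.3, 7.31 and 4.84 in scramble.

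The regions with the highest percentiles in 6 or more libraries were mostly GC-rich or AT-rich. First stood chr9:78821514-78822010, a GC-rich pseudogene 206 kb from Cd109, a GPI-anchored surface protein. Its fold enrichments were 3.45 and 4.65 in scramble replicates 1 and 2, with no call in replicate 3. The other groups had 20.1, 19.04 and 12.96 (CPT1a knockout), 14.96, 8.86 and 14.99 (acetate) and 17.5, 16.9 and 22.9 (KAT2a knockout). All 9 of these exceeded both scramble values.

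A similar order was seen at chr7:145024557-145025581, a single-copy region 84.6 kb from the cyclin D1 gene Ccnd1. Scramble replicates 1 and 3 had 6.14 and 4.15 and replicate 2 had no call. CPT1a knockout libraries had 9.20, 9.26 and 9.38, acetate libraries 12.6, 15.7 and 14.7, and KAT2a knockout libraries 9.12, 22.1 and 16.3. At chrX:75723539-75723941 near Pls3, an actin-bundling protein gene, scramble libraries had 4.75 to 6.66 and 8 of the other 9 had 7.23 to 17.4. These members are GC-rich (61.8%, 52.6% and 65.3%), were chosen for their strength, and carry no test.

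Not all strong regions had this order. At chr2:128240761-128242547, in an lncRNA gene 113 kb from Bcl2l11, which encodes the pro-apoptotic protein BIM, scramble replicate 1 had 11.4, within the range of the other libraries (7.22 to 18.6), while scramble replicates 2 and 3 had 4.81 and 5.73. The region near Eef1e1, chr13:38792237-38793824, sits on the start of the lncRNA Gm47509 and had 10.7, 8.32 and 9.66 in scramble and 8.43 to 15.3 elsewhere. In contrast, the AT-rich region near Gpat3, chr5:101160056-101160452, was highest in scramble with 7.02, 14.9 and 10.4, lacked a call in the CPT1a knockout and had 3 calls of 4.54 to 11.6 in the remaining 6 libraries. A related AT-rich region near Tbl1xr1, chr3:21240693-21241230, was highest in KAT2a knockout replicate 3 with 14.5 and was not called in the acetate group.

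The 4 longest regions were each called in 11 libraries, with CPT1a knockout replicate 3 missing. The longest, chr4:89506258-89509883, spanned 3626 bp and lay 170 kb from Dmrta1, with fold enrichments of 5.22 to 9.84. The others lay near Rasa1, a Ras GTPase-activating protein gene (chr13:85429074-85432136, 5.30 to 13.0), Spdye4c (chr2:128388329-128391389, 4.53 to 8.56) and the interferon gene Ifne (chr4:88999609-89002567, 4.48 to 10.9). All 4 were single-copy and wide rather than strong, with median percentiles of 33.8 to 44.6.

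Of the 90 regions at lncRNA starts, the 5 called in most libraries are given, each called in 11. Beside the Eef1e1 region they were chr10:50425690-50427191 at the start of Gm48275 (5.09 to 12.4), chr1:7396760-7398850 at Gm26901 (5.17 to 14.3), chr14:105681830-105682338 at Gm10076, 214 kb from the receptor tyrosine kinase inhibitor gene Spry2 (4.77 to 13.8), and chr17:84025353-84027514 at AC091309.5, 160 kb from Zfp36l2, an mRNA decay factor gene (4.61 to 11.6). The Gm48275 region lay in sequence with 52 genome copies.

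The 3 most remote regions were repeated sequence. The greatest distance was 1852576 bp, from chr5:59955729-59956240 to G6pd2, and the region had 120 genome copies and fold enrichments of 4.53 to 8.40 in 8 libraries. One region on chromosome 18, near Celf4, was 1844423 bp away with 4.5 copies, and chr14:90295125-90295417 was 1823729 bp from Pcdh20 with 434 copies and calls in 2 libraries only.

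Regions often came in runs. When regions within 25 kb of each other were joined, 275 runs held 708 of the 1538 regions (46.0%), and 17 runs held 5 or more. Among the largest were runs near Hmga2 (chr10:120577064-120632997, 9 regions), Myc (chr15:62078656-62121735, 9), Cdkn2b and Dmrta1 (chr4:89474703-89530241, 7) and Slc45a1 and Errfi1 (chr4:150745589-150800535, 7). By nearest gene, Myc led with 16 regions, and next were, among others, Hmga2 and Serp2 (9 each), Zfp36l2 (8) and Bcl2l11, Cdkn2b, Gm5148, Mtss1, Phlda1 and Trib1 (7 each), all single-copy.

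Myc encodes a transcription factor that drives growth and is a frequent oncogene in carcinoma. Its 16 regions lay 55.2 to 452 kb away, and 15 of them in the bodies of the lncRNA genes Pvt1 and Gm49498. Libraries of scramble called 15, 5 and 11 of them, CPT1a knockout 8, 6 and 0, acetate 5, 5 and 8, and KAT2a knockout 10, 11 and 8. Of all variable far regions, scramble libraries called 74.2%, 39.7% and 49.0% and CPT1a knockout libraries 52.4%, 59.0% and 4.10%. Acetate libraries called 35.6%, 19.7% and 48.9% of these and KAT2a knockout libraries 56.0%, 70.7% and 45.3%. Among the Myc regions, the highest median percentile, 36.8, belonged to the most distal region of the Pvt1 body, chr15:62328061-62329843. Its fold enrichments were 6.43, 5.45 and 5.57 in scramble and 4.74, 8.57 and 6.41 in the KAT2a knockout, which overlapped. Next, with a median percentile of 34.0, was chr15:62117747-62120562, which had 4.97, 4.94 and 4.43 in scramble and 4.96 and 6.15 in CPT1a knockout replicates 1 and 2. It had 5.70, 7.97 and 5.55 in the acetate group and 7.49, 8.78 and 8.75 in the KAT2a knockout, and here each KAT2a knockout value lay above each scramble value.

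The Myc regions stood in raised background. The local background recovered from the lists was 2.25 to 4.31 times the calling depth over the 16 regions (median 2.67), compared with a median of 1.20 over all 1538. It was raised in each of the 11 libraries that called any of them, with library medians of 2.21 to 4.40. Fold enrichment is taken over this background, so that values near Myc are low for their read number. Whether more DNA copies of the locus were present was not tested.

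**Figure D4:**
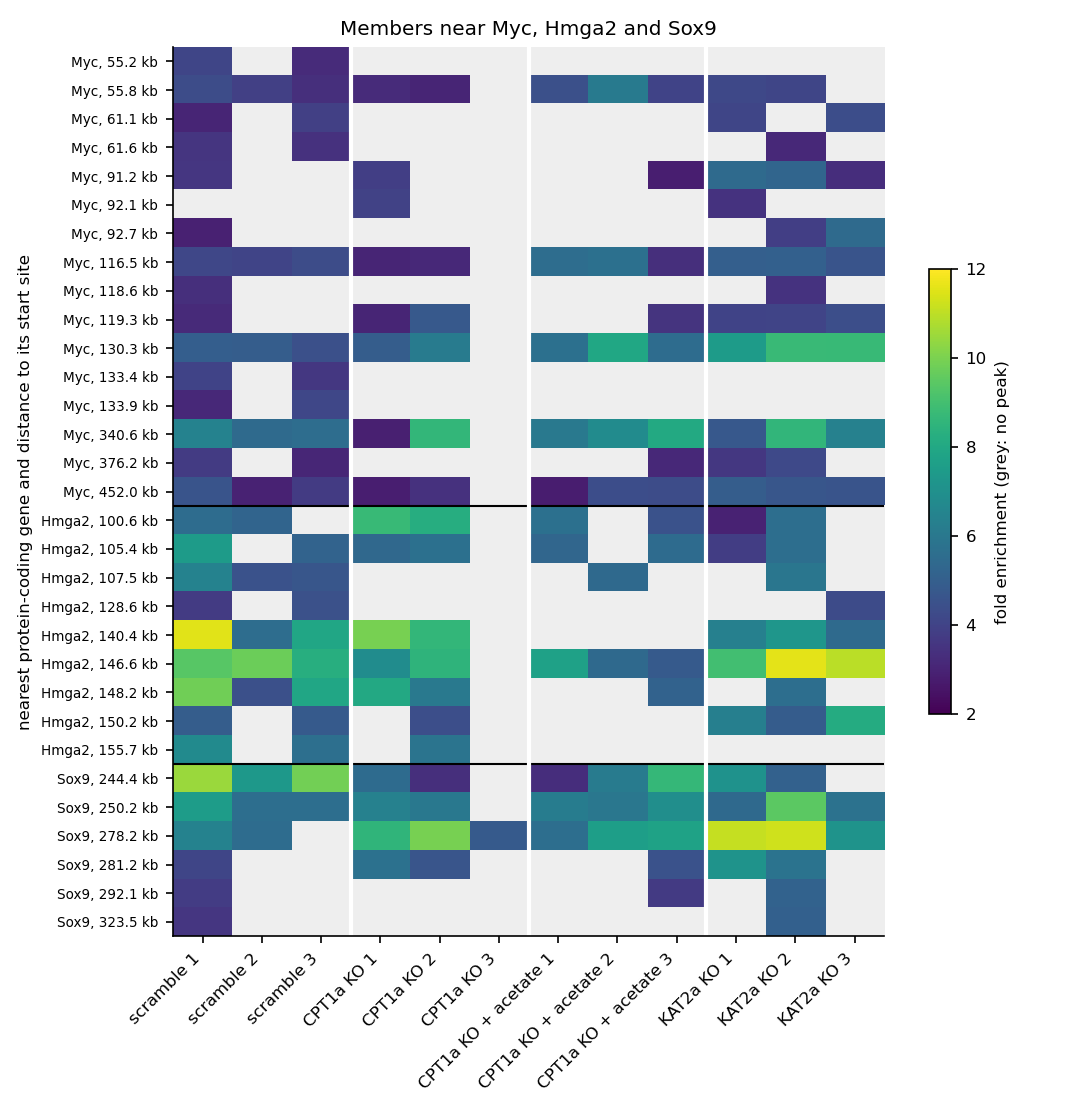
Fold enrichment (colour scale, grey where no peak was called) of the far intergenic regions near Myc, Hmga2 and Sox9, 1 row per region ordered by distance to the coding start site and 1 column per library. The column of CPT1a knockout replicate 3 is grey for all Myc and Hmga2 regions, and fold enrichments run from 2.80 to 8.78 near Myc and from 2.95 to 11.6 near Hmga2.

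Hmga2, an architectural chromatin protein of embryonic and tumour cells, had 9 regions at 101 to 156 kb in background of median 1.00. Scramble libraries called 9, 5 and 8 of them, CPT1a knockout 5, 7 and 0, acetate 3, 2 and 4, and KAT2a knockout 5, 7 and 4. Over all variable far regions, shares called were 74.2%, 39.7% and 49.0% in scramble and 52.4%, 59.0% and 4.10% in the CPT1a knockout. They were 35.6%, 19.7% and 48.9% in the acetate group and 56.0%, 70.7% and 45.3% in the KAT2a knockout. The most frequent Hmga2 region, chr10:120623091-120624498, had 9.40, 9.75 and 8.28 in scramble and 6.86 and 8.51 in the CPT1a knockout. It had 7.74, 5.42 and 4.84 in the acetate group and 8.98, 11.6 and 10.98 in the KAT2a knockout. All acetate values lay below all scramble and KAT2a knockout values there. Its neighbour chr10:120616906-120618329, with 11.5, 5.57 and 7.93 in scramble, had no call in the acetate group.

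Sox9, a transcription factor of epithelial progenitors and cartilage, had 6 regions 244 to 323 kb away around the lncRNA 2610035D17Rik. At chr11:113060398-113061761 the values were 6.42 and 5.54 in scramble replicates 1 and 2, 8.54, 9.93 and 4.85 in the CPT1a knockout, 5.62, 7.60 and 7.77 in the acetate group and 11.1, 11.3 and 7.12 in the KAT2a knockout. All KAT2a knockout values lay above both scramble values here, and every other pair of groups overlapped. At chr11:113026581-113028047 the order was different, with 10.5, 7.31 and 9.86 in scramble and 3.33, 6.16 and 8.65 in the acetate group.

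Smaller numbers of regions lay near other genes. Near Tnfaip3, an inhibitor of NF-kB signalling, 4 regions lay at 52.4 to 124 kb. One of them, chr10:19140111-19141350, was called in 3 of 3 scramble (6.44, 5.22 and 5.33) and 3 of 3 KAT2a knockout libraries (9.35, 8.79 and 5.46), in 1 acetate library and in 0 of 3 CPT1a knockout libraries. Max, the dimerization partner of MYC, had 4 regions at 97.9 to 123 kb and Runx1 4 at 77.3 to 180 kb. For both genes, the acetate libraries called 0, 0 and 1 region, and the KAT2a knockout libraries called 3, 4 and 2 at Max and 4, 4 and 1 at Runx1. Over all 1538 regions the acetate libraries also called lower shares (35.6%, 19.7% and 48.9%) than the KAT2a knockout libraries (56.0%, 70.7% and 45.3%), except for acetate replicate 3 against KAT2a knockout replicate 3. Sox2 had 3 regions, each called in 2 libraries, of which 5 calls in all were in scramble and 1 in the KAT2a knockout. Of the scramble calls, 3 were in replicate 1, which called 74.2% of all 1538 regions.

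The neighbouring genes were compared with fixed lists, each share being that of regions whose nearest coding TSS belonged to the list. The share among all 2922 far regions is given last, since genes with wide intergenic flanks are nearest to more of any far regions. The Myc family was nearest to 20 regions (1.30%, against 0.132% of all merged and 1.10% of far regions), all single-copy and at Myc and Max. Mammary and epithelial identity genes were nearest to 23 (1.495% against 0.389% and 1.78%), at 11 of 24 genes, among them Sox9 with 6, Runx1 with 4 and Klf5 with 3, and 20 of the 23 were single-copy. Developmental transcription factors accounted for 28, of which 20 were single-copy (1.82% against 0.601% and 2.26%).

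Adhesion genes, mostly cadherins and protocadherins, were nearest to 21 regions (1.37% against 0.200% and 1.10%), but only 4 of these were single-copy. NF-kB genes accounted for 5, all single-copy (0.325% against 0.158% and 0.342%), and factors of epithelial-mesenchymal transition for 5, of which 3 were single-copy (0.325% against 0.0959% and 0.308%). AP-1 genes accounted for 2, of which 1 was single-copy (0.130% against 0.114% and 0.137%), and secreted signals for 9, of which 8 were single-copy (0.585% against 0.420% and 0.787%). No region was nearest to any of the 20 lipid handling genes (0.153% of all merged regions and 0 of the far regions). The shares were thus above those of all merged regions except for lipid handling, but not consistently above those of all far regions. These are counts of position, with no test.

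Short motifs were counted on both strands in the 300 bp around the summit of the strongest peak of each region. Each share is set against that of all merged regions and then that of variable gene body regions. The AP-1 letters TGANTCA were present in 11.1% of the regions, against 8.22% and 10.3%. The share was 13.2% in single-copy regions, 6.504% in repeated ones and 3.51% in far regions called in all 12 libraries. TEAD letters GGAATG were in 15.6% against 14.4% and 15.9%, and RUNX letters TGTGGT in 21.8% against 19.4% and 22.3%. Both were thus above all merged regions and below gene body regions. FOX letters TGTTTAC were in 5.27% against 4.40% and 4.86%.

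The letters TTGCNNAA of CEBP were in 13.8% against 10.98% and 11.3%, and those of the GATA motif with the letters AGATAA in 18.7% against 15.1% and 16.9%. Both were more frequent in repeated regions (17.7% and 26.6%). NF-kB letters GGGANTTTC were in 1.82% against 1.01% and 0.883%, and ETS letters CCGGAAG in 2.21% against 2.15% and 1.51%. The SP letters GGGCGG were in 6.24% against 12.1% and 5.00%, below all merged regions and above gene body regions, and CTCF letters CNAGGNGGC in 2.93% against 4.55% and 3.07%. None of these strings of letters holds another, a match is no sign of binding, and shares follow base composition, which was not held equal.

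The chromosomes differed in how many far regions they held. Sequence that met the criteria of position made up 982 Mb, or 37.3% of the genome, with 15.7 regions per 10 Mb of it and 10.7 single-copy regions per 10 Mb. Chromosomes 15 and 17 had the highest single-copy densities, 19.2 and 18.98 per 10 Mb, and chromosome X the lowest, 2.66. Median background at the regions was 1.57 and 1.49 times the calling depth on chromosomes 15 and 17 and 1.01 on X. Background and density did not go together everywhere: chromosome 8 had a ratio of 1.65 with 7.26 regions per 10 Mb, and chromosome 13 a ratio of 1.03 with 15.2.

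**Figure D5:**
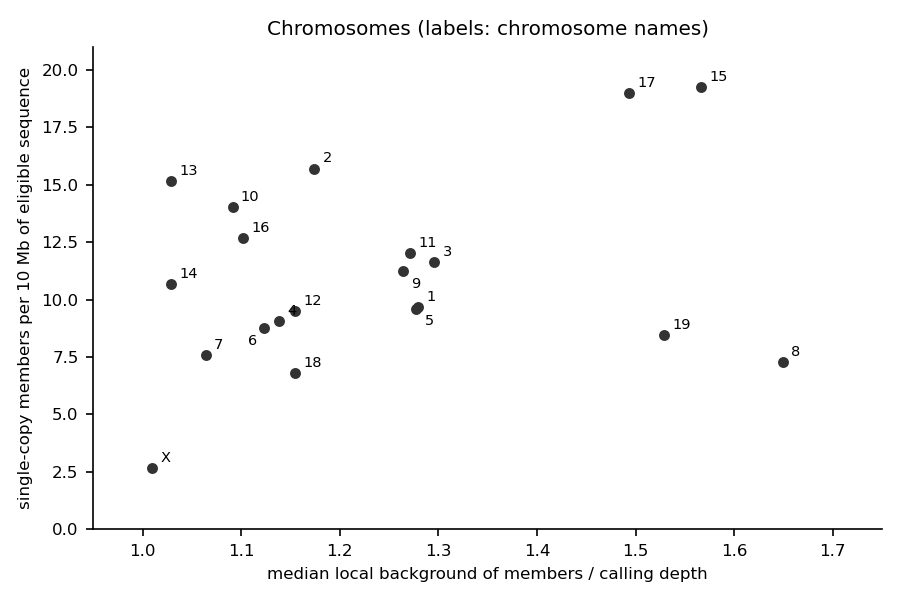
Single-copy far intergenic regions per 10 Mb of sequence that met the criteria of position (y axis) against the median local background of the regions relative to calling depth (x axis), 1 point per chromosome. Chromosome 15 has 19.2 regions per 10 Mb at a background of 1.57 and chromosome X has 2.66 at 1.01.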

How the data were processed

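H3K9ac was profiled by ChIPmentation, a tagmentation-based chromatin immunoprecipitation, in 12 libraries. The 12 input libraries were not analysed here. Per the labels, reads were mapped to mm10 with dm6 as spike-in using Bowtie2, and peaks were called with MACS2 for each library. The study's methods name BWA instead, and neither source used here states whether input served as control. Each deposited peak list gave position, summit, fold enrichment as a ratio over local background, −log10 p and −log10 q values, and a score equal to 10 times the −log10 q rounded down. The authors kept peaks of q up to 0.01 and at least 200 bp. As no read counts were used, intervals on calls could not be given.

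Peaks on chromosome Y and unplaced sequence were left out. Regions were annotated with GENCODE vM21. Calling depth was recovered by inverting the Poisson p-value at the reported fold enrichment. At equal depth, p-values were recomputed at the depth of the shallowest list, and peaks of −log10 p of 5 or more were kept. At equal length, the peaks of lowest p-value were kept, up to the length of the shortest list. In both settings the peaks kept had their deposited positions, widths and fold enrichments, and only percentiles were taken anew. Groups were compared over libraries by two-sided exact permutation tests, and classes of regions by exact paired tests, with Benjamini-Hochberg adjustment, in Python 3.11.15 with SciPy 1.17.1, after being tested on simulated data. Motif windows, distance, overlap, merging, depth and GC content were varied. Replicate numbers did not pair the libraries.

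The regions, gene lists and tests were chosen with earlier results of these data known. Regions were named by rule: the 8 with the highest median percentile in 6 or more libraries, up to 2 for each direction between a pair of groups, up to 6 called in scramble only or outside scramble only, the 4 longest, 5 at lncRNA starts, the 3 farthest and those near list genes. Regions near the genes with most single-copy members were chosen after their values were seen. Some regions that these rules select are not reported here.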

Additional observations from a re-analysis of the deposited data

Results flagged for a closer look

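All 4 results listed here are differences between scramble and the other 9 libraries in how far intergenic regions compare with other variable regions of the same library. Scramble exceeded the others by 41.1 bp in the width difference from gene body regions, by 5.17 points in the percentile difference from gene body regions, by 76.1 bp in the width difference from promoter regions and by 7.54 points in the percentile difference from promoter regions. The 3 scramble libraries did not overlap the other 9 in any of these. The split was chosen after this had been seen, so the differences were not tested independently. Within each number of calling libraries the gene body differences were 12.5 bp and 1.695 points, and at 40 to 50% GC the promoter width difference was 5.06 bp. The median GC content of the far regions called moved with the groups (43.1% to 44.7% in scramble, 46.8% to 52.4% elsewhere). That of all variable regions called did so too (43.5% to 46.2% and 49.0% to 55.2%). The part of base composition in these differences was not tested beyond the settings given under processing.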

How the results depend on the processing

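Each result was recomputed under other settings, of which 470 values kept their direction and side of the threshold or moved little. Settings on genome copies, GC content and the scramble split were chosen after seeing the data, and the cause of a change was not tested. The number of regions was 2332 beyond 25 kb, 853 beyond 100 kb and 653 at equal calling depth.

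Far peaks per library differed from scramble by 156 (CPT1a knockout), 291 (KAT2a knockout) and 147 (acetate group) at equal calling depth and by 109.7, 164.7 and 7 at equal list length, and scramble minus the other 9 libraries gave -198 and -93.8. With peaks within 500 bp merged, the KAT2a knockout differed from scramble by 15.3 peaks, and with a 25 kb limit acetate differed from the CPT1a knockout by 52. As a percent of all peaks, the acetate group differed from scramble by 0.452 at equal depth, 0.0432 at equal length and 0.160 beyond 25 kb, and after merging the CPT1a knockout differed from scramble by -0.495 and scramble from the other 9 libraries by 0.214. Median width in the acetate group minus the CPT1a knockout was 3.67 bp after merging, 15 bp at equal depth, 34.3 bp at equal length and 0.5 bp without lncRNA promoters. At equal list length, scramble exceeded the other 9 libraries by 256.7 bp and by 4.89 percentile points, both with an exact permutation adjusted p of 0.0455, and acetate minus CPT1a knockout was -0.927 points. At a 200 bp window each motif share was lower (AP-1 7.02%).

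Against gene body regions, the width difference was -9.60 bp within each number of libraries, 6.5 bp without repeated regions and -23.1 bp at 40 to 50% GC, where the percentile difference was 0.704. Against promoter regions the percentile difference was 1.51 within each number of libraries. Of the scramble splits, the gene body differences were 12.5 bp and 1.695 points within each number of libraries and 2.31 points without repeated regions, and the promoter width difference was 5.06 bp at 40 to 50% GC.

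Regions called in 1 group and not in another changed with depth, and the same counts were not made over all variable regions under these settings. At equal depth and at equal length, 28 and 23 were in the CPT1a knockout and not in scramble, 16 and 16 the reverse, 4 and 8 in scramble and not in the KAT2a knockout, 8 and 9 in the CPT1a knockout and not in the acetate group, and 22 and 23 in scramble and not in the acetate group. The acetate group held 24 that scramble lacked at equal depth and 7 when peaks had to cover at least 0.5 of the region, and 4 that the CPT1a knockout lacked at equal length.

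Leaving out 1 library at a time, far peaks ranged from -295 to 104.8 for the KAT2a knockout minus scramble and from -355 to 183.7 for acetate minus CPT1a knockout. Percents ranged from -0.0705 to 1.72 for the CPT1a knockout minus scramble and from -0.500 to 0.349 for acetate minus scramble. Widths ranged from -45.2 to 13.8 bp for the KAT2a knockout minus scramble and from -28.3 to 17.3 bp for acetate minus CPT1a knockout, whose percentiles ranged from -0.320 to 6.19. The width difference from gene body regions ranged from -13.5 to -8 bp and passed without scramble replicate 1 (adjusted exact permutation p = 0.0378). The counts ranged from 10 to 92 and from 54 to 184 (CPT1a knockout only, scramble only), from 60 to 122 and from 32 to 137 (KAT2a knockout, scramble), from 14 to 51 and from 93 to 249 (acetate, scramble), and from 2 to 21 and from 1 to 107 (acetate, CPT1a knockout). No background over all variable regions was computed for these ranges.

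Replicate numbers did not pair the libraries: over 18 same-numbered pairs, deviations from group means correlated at -0.121 to 0.149, with 2 pairs over 0.1, and 6 libraries correlated best with their own number. With the replicate number as a replicate block, the percentile difference of scramble from the other 9 libraries was 13.5 (exact permutation p = 0.0156, adjusted 0.313), and no call of the 20 comparisons changed.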

Other observations

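A few regions stood in very high local background, as recovered from the lists. The ratio of background to calling depth was 106 at chr12:3109772-3110172, near Rab10 and called in 2 libraries, and 26.8 at chr1:195241531-195242030, near Cr2 and called in 10 libraries. Both had median percentiles near 0 (0.0445 and 0.115), so peaks passed there at low fold enrichment.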
